A study of Mus musculus with 33 samples.

Results

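The genes of MHC class I presentation were followed in 33 RNA-seq libraries of phagocytes sorted from mouse brain. The members were the 10 genes whose Ensembl identifiers carry the symbols H2-K1, H2-D1, B2m, Tap1, Tap2, Tapbp, Psmb8, Psmb9, Psmb10 and Nlrc5, out of 21950 genes in the count table and 27745 in the table of log2 FPKM (fragments per kilobase of transcript and 1000000 fragments, here rescaled so that all 33 libraries share a 75th percentile of 2.936 on the log2 scale). The ratio of FPKM to counts differed between libraries, by factors that were not the same for every gene. All 10 were in both tables and all 10 passed the count filter in each comparison. The mice carried an induced disease labelled Cortical MS, which all 6 groups share, so there was no undiseased control among these libraries. Each of 3 sorted populations had 6 libraries with a CSF1R inhibitor (CSF1R is the receptor kinase that microglia need to survive) and 5 with vehicle. Resting microglia were sorted as CD45-int CD11b-int, activated microglia as CD45-high CD11b-high CCR2-, and blood-derived phagocytes as CD45-high CD11b-high CCR2+. The labels give no strain, age or animal, and do not name the inhibitor's dose or duration. They do not say which libraries came from separate animals, so p-values measure the spread between these libraries, which may in part be technical.

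Totals ran from 11789803 to 22146705 counts, and 9742 to 14861 genes had at least 1 count. The sorted populations were checked against marker lists. The 10 homeostatic microglia markers (Cx3cr1 and others) summed to 22020 to 32000 counts per 1000000 counts (CPM) in resting vehicle libraries, but to 1138 to 5153 CPM in activated and 2890 to 4167 CPM in blood-derived ones, so homeostatic microglial RNA was low in the gate labelled activated microglia. Neutrophil markers, led by S100a9 and S100a8, summed to 26010 to 82190 CPM in activated vehicle libraries, against 401 to 595 CPM in blood-derived phagocytes and 821 to 1061 CPM in resting microglia. NK cell markers summed to 713 to 3555 CPM in the activated gate, 7.73 to 54.0 CPM in blood-derived phagocytes and at most 4.67 CPM in resting microglia. Monocyte markers summed to 2091 to 4715 CPM in activated, 1954 to 7350 CPM in blood-derived and 81.8 to 174 CPM in resting vehicle libraries, and T cell markers to 131 to 461, 15.4 to 58.8 and 5.09 to 7.06 CPM. B cell markers summed to 30.2 to 220, 11.3 to 16.1 and 22.4 to 35.5 CPM, and dendritic cell markers to 68.3 to 305, 42.8 to 117 and 905 to 1578 CPM. The last sums are led by Siglech (mean 461.9 CPM over all libraries, next Flt3 at 34.64), which is also on the homeostatic microglia list. Of the 7 dendritic markers, 4 were higher and 2 lower in blood-derived than in resting vehicle libraries (30.9% and 31.6% of all genes). Of 6 tested, 2 were higher and 1 lower in activated ones (18.2% and 10.7%). These markers move with the comparisons between populations, and their part in those results was not tested. In such bulk libraries, fewer cells of a type and less RNA per cell cannot be told apart. In 3 activated libraries, namely vehicle replicate 2 and inhibitor replicates 1 and 2, fewer than 11000 genes were detected.

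MHC class I molecules show peptides from a cell's own cytosol to CD8 T cells. A polymorphic heavy chain (H2-K1, H2-D1) pairs with the light chain beta-2 microglobulin (B2m) and is filled in the endoplasmic reticulum with peptides that the TAP transporter, a dimer of Tap1 and Tap2, carries in from the cytosol and that tapasin (Tapbp) helps to load. The peptides are cut by the proteasome. Interferon gamma induces 3 catalytic subunits, Psmb8, Psmb9 and Psmb10, that replace Psmb5, Psmb6 and Psmb7 in newly built particles and give the immunoproteasome. Nlrc5 is the transactivator that binds, through a larger complex, to the promoters of class I genes, B2m, Tap1 and Psmb9. In GRCm38, 7 of the members lie in the MHC on chromosome 17, where Tapbp (33915899 to 33929292, plus strand), H2-K1 (33996017 to 34000347, minus), Psmb9 (34181987 to 34187764, minus), Tap1 (34187553 to 34197225, plus), Psmb8 (34197721 to 34201454, plus), Tap2 (34203527 to 34216321, plus) and H2-D1 (35262730 to 35267499, plus) follow each other. B2m lies on chromosome 2 (122147686 to 122153083, plus), and Psmb10 (105935735 to 105938444, minus) and Nlrc5 (94434356 to 94527272, plus) on chromosome 8. GENCODE annotates all of them as protein-coding.

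Promoter sequence was available in RefSeq (GRCm38.p6) for 8 of the members. Psmb9 and Tap1, whose levels parted in these cells, start from the same stretch of DNA, which is shown with the promoters of H2-K1, H2-D1 and B2m. The promoters of H2-K1 and H2-D1 carry a whole set of motifs in a shared order, while the other sequences below carry only some of its motifs. Each runs 5′ to 3′ on the strand named, and capitals mark matches, on either strand, to 1 of these motifs: GGGATTCC (kappaB), GAANNGAAA (interferon response, short form), a long form of it in which GAAA stands on both sides of 2 free bases and which may overlap the short form, TGACG (cAMP response element core), and CCAAT (bound by NF-Y).
H2-K1 (chr17:34000349-34000467, minus strand): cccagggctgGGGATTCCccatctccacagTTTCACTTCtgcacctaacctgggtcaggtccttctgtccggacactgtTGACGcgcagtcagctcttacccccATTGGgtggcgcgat
H2-D1 (chr17:35262914-35263055, plus strand): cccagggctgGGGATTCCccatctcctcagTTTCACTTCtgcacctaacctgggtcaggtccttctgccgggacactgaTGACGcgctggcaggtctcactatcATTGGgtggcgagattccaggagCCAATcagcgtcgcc
B2m (chr2:122147538-122147648, plus strand): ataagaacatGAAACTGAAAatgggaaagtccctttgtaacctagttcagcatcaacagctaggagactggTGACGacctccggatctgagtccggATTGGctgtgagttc
Tap1 and Psmb9, all bases between the RefSeq starts (chr17:34187331-34187555, plus strand, Psmb9 leaving to the left and Tap1 to the right): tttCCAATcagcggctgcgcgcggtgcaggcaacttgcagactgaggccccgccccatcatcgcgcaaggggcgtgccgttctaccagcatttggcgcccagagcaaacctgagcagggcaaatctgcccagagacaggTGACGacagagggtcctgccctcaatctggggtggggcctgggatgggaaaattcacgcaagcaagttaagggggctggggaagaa

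The H2-K1 and H2-D1 stretches matched at 97 of 110 aligned bases (88.2%), and both held the kappaB, short interferon response, TGACG and CCAAT matches in the same order. Among 32851 promoter windows of 250 upstream bases, that order was found in 4 windows (0.0122%) of 3 genes, H2-K1, H2-D1 and H2-Q7. The single motifs were far more common, at 0.889% of windows for GGGATTCC, 6.31% for GAANNGAAA, 2.98% for the long interferon response form, 17.8% for TGACG and 33.8% for CCAAT. Of the 8 members searched, TGACG matched in 5 and CCAAT in 6, and the long interferon response form only in B2m. These matches describe letters and not occupied sites. GENCODE also annotates longer transcripts of H2-D1 and Psmb9 that begin outside the RefSeq starts, so the H2-D1 stretch and the stretch between Psmb9 and Tap1 lie inside the bounds GENCODE gives these genes.

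B2m and the heavy chains were the most abundant members in every group. By FPKM, which is scaled by length so that genes can be compared, B2m group medians ran from 4642 to 6735, H2-D1 from 2358 to 3309 and H2-K1 from 1003 to 1191. Psmb8 medians ran from 187 to 416, Tapbp from 160 to 279, Psmb9 from 73.7 to 195, Psmb10 from 65.9 to 132, Tap1 from 76.2 to 111, Tap2 from 80.8 to 102 and Nlrc5 from 13.9 to 38.5. The fold between the highest and the lowest group median was 1.19 for H2-K1, 1.25 for Tap2, 1.40 for H2-D1, 1.43 for Tap1 and 1.45 for B2m. It was 1.74 for Tapbp, 1.99 for Psmb10, 2.22 for Psmb8, 2.60 for Psmb9 and 2.65 for Nlrc5. In the order of the group medians, neighbouring groups overlapped in their libraries for all members except at 2 steps. For Psmb9, the step between blood-derived inhibitor and resting inhibitor libraries was clear of overlap. For Nlrc5, the step between activated vehicle and resting vehicle libraries was clear. Whether libraries overlap depends on the scale, so the counts by CPM, an alternative added after the data were seen, are given beside those by FPKM. The 2 scales part by gene as well as by library. In activated vehicle replicates 1 and 2, Nlrc5 was 29.74 and 63.53 FPKM at 178.5 and 269.2 CPM. H2-K1 in the same libraries was 911.6 and 1267 FPKM at 1562 and 2367 CPM. The source of this difference was not tested.

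**Figure D1:**
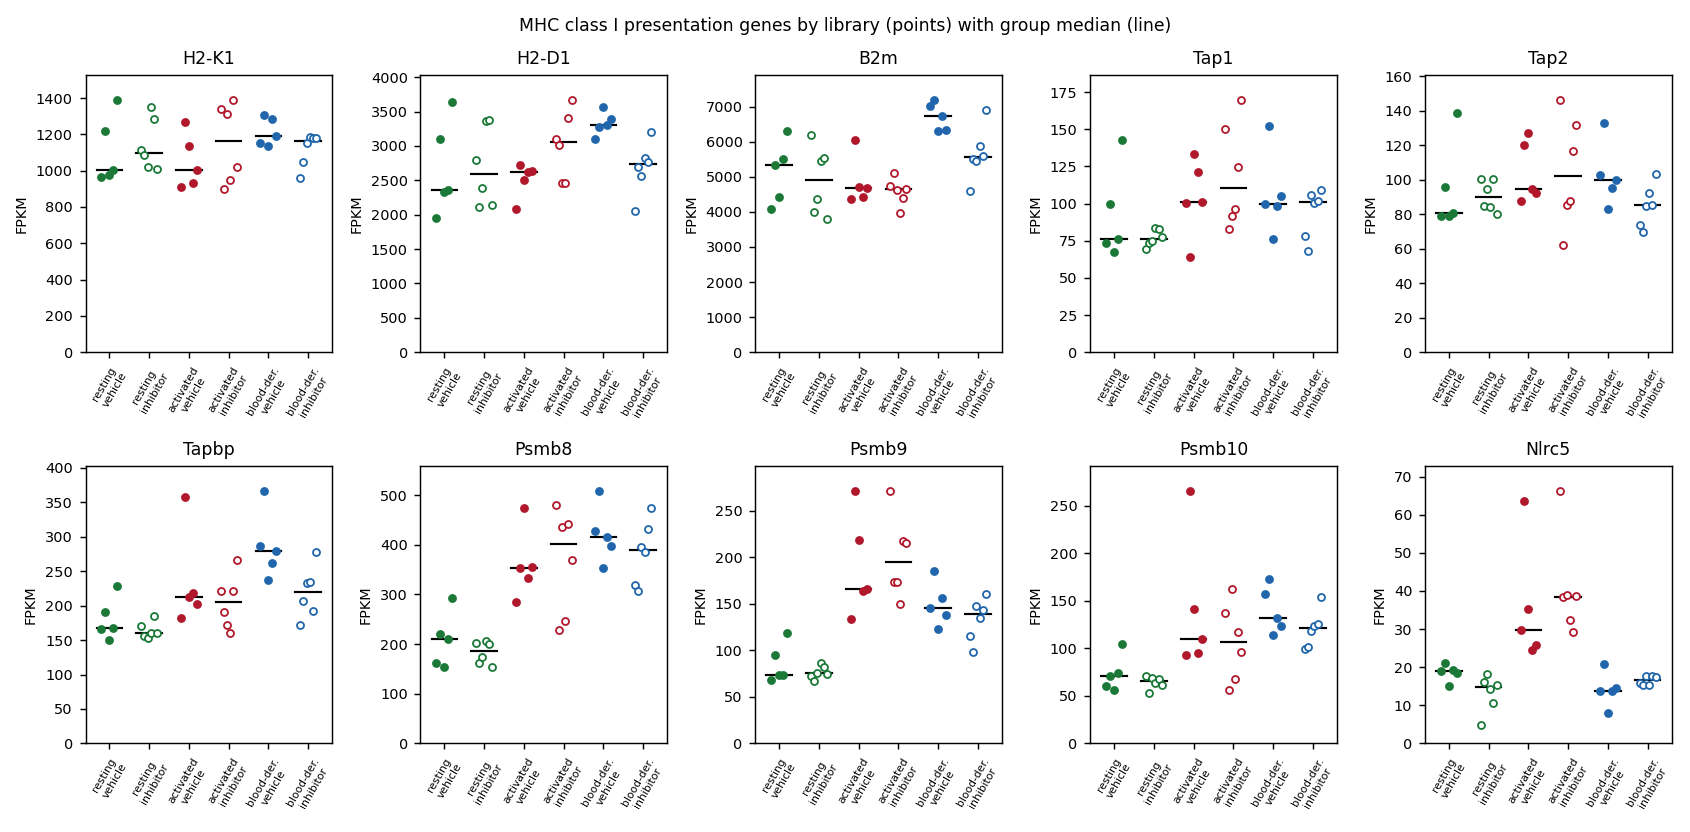
FPKM of each member (vertical axes, each from 0) in all 33 libraries (points, filled for vehicle and open for inhibitor), by group, with the group median as a line. Psmb8 and Psmb9 sit higher in both CD45-high populations than in resting microglia, Nlrc5 is highest in the activated gate, and the group medians of H2-K1 and Tap2 span 1.19-fold and 1.25-fold.

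Vehicle libraries of the gate labelled activated microglia had more immunoproteasome RNA than those of resting microglia, while the heavy chains, B2m and TAP did not pass the test. The transactivator Nlrc5 was called higher only at the edge of the threshold, and lost that call in most other fits. Neutrophil markers summed to 26010 to 82190 CPM in these activated libraries, and their part was not tested. Psmb9 stood at 134, 271, 219, 164 and 166 FPKM in the 5 activated libraries and at 68.4, 94.6, 73.1, 73.7 and 119 FPKM in the 5 resting ones. All activated values lay above all resting values, by FPKM and by CPM. On the log2 scale Psmb9 rose by 1.12 ± 0.20 (SE; edgeR adjusted p = 0.00137). Psmb8 measured 286, 354, 475, 333 and 355 FPKM against 161, 220, 155, 211 and 293 FPKM. Its lowest activated library lay just under the highest resting one, and it rose by 0.80 ± 0.19 (edgeR adjusted p = 0.00839). Psmb10 measured 93.5, 265, 142, 95.2 and 110 FPKM against 60.8, 70.7, 56.1, 73.6 and 105 FPKM. It rose by 1.00 ± 0.28 (edgeR adjusted p = 0.0216), and the activated library at 265 FPKM was replicate 2, which had few detected genes.

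Nlrc5 stood at 29.7, 63.5, 35.3, 24.6 and 25.7 FPKM in activated and at 18.9, 21.02, 15.2, 19.2 and 18.5 FPKM in resting vehicle libraries. The libraries did not overlap by FPKM, but they did by CPM (102.5 to 269.2 against 98.46 to 155.2 CPM), and the increase of 0.58 ± 0.20 was at the edge of the threshold (edgeR adjusted p = 0.0486). It missed the threshold in 9 of the 10 fits that left out 1 library. For H2-K1 the difference was -0.06 ± 0.15 (95% interval -0.39 to 0.26), for H2-D1 -0.07 ± 0.19 (-0.48 to 0.34), for B2m -0.07 ± 0.15 (-0.40 to 0.27), for Tap1 0.21 ± 0.25 (-0.33 to 0.75) and for Tap2 0.15 ± 0.18 (-0.25 to 0.54). Tapbp was 0.36 ± 0.18 higher without passing the test (edgeR adjusted p = 0.162). Of the 10 members, 4 were called, all higher, where 28.9% of all 12098 genes tested were called in either direction and 18.2% as higher. The members' median log2 difference was 0.29, against -0.10 over all genes, and 2 members had libraries that did not overlap by FPKM, as did 32.6% of genes (by CPM 1 member, Psmb9, and 34.5% of genes). With 10 members these shares are near the background. Without activated replicate 2, 3 members were called, Psmb8 at 0.83, Psmb9 at 0.99 and Psmb10 at 0.67, while Nlrc5 at 0.47 missed the threshold. Leaving out resting replicate 1, 3 or 4 left 2 members called, Psmb8 and Psmb9. When detected genes entered the fit as a covariate 0 members were called, but that number did not overlap between activated (9829 to 13153) and resting libraries (13650 to 14861), so it and the population cannot be told apart.

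Blood-derived phagocytes of the vehicle groups also had more immunoproteasome RNA than resting microglia, and in addition more tapasin and slightly more B2m, but no more Nlrc5. Psmb8 stood at 427, 508, 354, 416 and 397 FPKM, above every resting library by FPKM and by CPM, and rose by 0.96 ± 0.16 (edgeR adjusted p = 0.000233). Psmb10, at 157, 173, 114, 132 and 123 FPKM, rose by 0.89 ± 0.17 (edgeR adjusted p = 0.000518). Psmb9, at 145, 185, 123, 156 and 138 FPKM, rose by 0.64 ± 0.15 (edgeR adjusted p = 0.0025). By FPKM no blood-derived library of Psmb9 or Psmb10 fell within the resting range, but by CPM the groups overlapped for both. Tapbp measured 287, 366, 238, 262 and 279 FPKM, against 166, 191, 151, 168 and 228 FPKM in resting microglia, and rose by 0.58 ± 0.13 (edgeR adjusted p = 0.00217). B2m measured 7011, 7196, 6297, 6735 and 6338 FPKM against 4085, 5349, 4431, 5494 and 6295 FPKM. The lowest blood-derived value lay just above the highest resting one by FPKM but not by CPM (5148 against 5977), and the rise of 0.31 ± 0.12 (edgeR adjusted p = 0.0369) missed the threshold in 6 of the 10 fits that left out 1 library.

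Nlrc5 in blood-derived phagocytes was 13.8, 20.9, 7.87, 13.9 and 14.5 FPKM, a difference from resting microglia of -0.34 ± 0.22 (edgeR adjusted p = 0.202). H2-K1 differed by 0.04 ± 0.11 (95% interval -0.20 to 0.29), Tap1 by 0.11 ± 0.22 (-0.37 to 0.58), Tap2 by 0.04 ± 0.17 (-0.33 to 0.40) and H2-D1 by 0.26 ± 0.15 (-0.07 to 0.59). In all, 5 of 10 members were called, all higher, in a comparison where 62.5% of 12059 genes were called and 30.9% were called higher. By FPKM the libraries of 5 members did not overlap, against 47.0% of genes, and by CPM those of 1 member, Psmb8, against 48.2% of genes. With 10 members these shares are near the background. As in the activated gate, 0 members were called with detected genes as a covariate, whose range in blood-derived libraries (13213 to 13617) also missed that of resting ones.

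Between the 2 CD45-high populations, which were sorted apart by CCR2 on their surface, Nlrc5 was the member that passed the test. The vehicle libraries of these gates also differed in other markers. All 11 neutrophil, 7 of 8 NK cell and 8 of 10 T cell markers tested were lower in blood-derived than in activated cells (12.3% of genes). The part of these markers in the results was not tested. In vehicle libraries Nlrc5 was lower in blood-derived than in activated cells by -0.97 ± 0.26 (log2; edgeR adjusted p = 0.0237), with no overlap between libraries by FPKM but with overlap by CPM (50.34 to 141.2 against 102.5 to 269.2). This was the only member called of 10, where 18.8% of 11598 genes were called, 12.3% as lower and 6.48% as higher. Leaving out activated replicate 3 or blood-derived replicate 1, 4 or 5 brought the count to 0, with a Nlrc5 difference of -0.90 to -0.99. With detected genes as a covariate Nlrc5 also lost its call (-0.71, edgeR adjusted p = 0.1095). That number did not overlap between blood-derived (13213 to 13617) and activated libraries (9829 to 13153), so it and the population cannot be told apart. Psmb9 was -0.53 ± 0.19 lower (edgeR adjusted p = 0.0837), Psmb8 differed by 0.12 ± 0.15 and Psmb10 by -0.16 ± 0.29. B2m (0.33 ± 0.12, edgeR adjusted p = 0.091) and H2-D1 (0.30 ± 0.12, edgeR adjusted p = 0.103) were higher in blood-derived phagocytes without passing the test, and DESeq2 called both (adjusted p = 0.0366 and 0.0314). Their libraries did not overlap by FPKM, which held for 3 members and 24.2% of genes, but by CPM this held for 0 members and 22.2% of genes. Activated vehicle libraries serve in this comparison and in that with resting microglia, and blood-derived and resting ones likewise serve in 2 comparisons each.

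**Figure D2:**
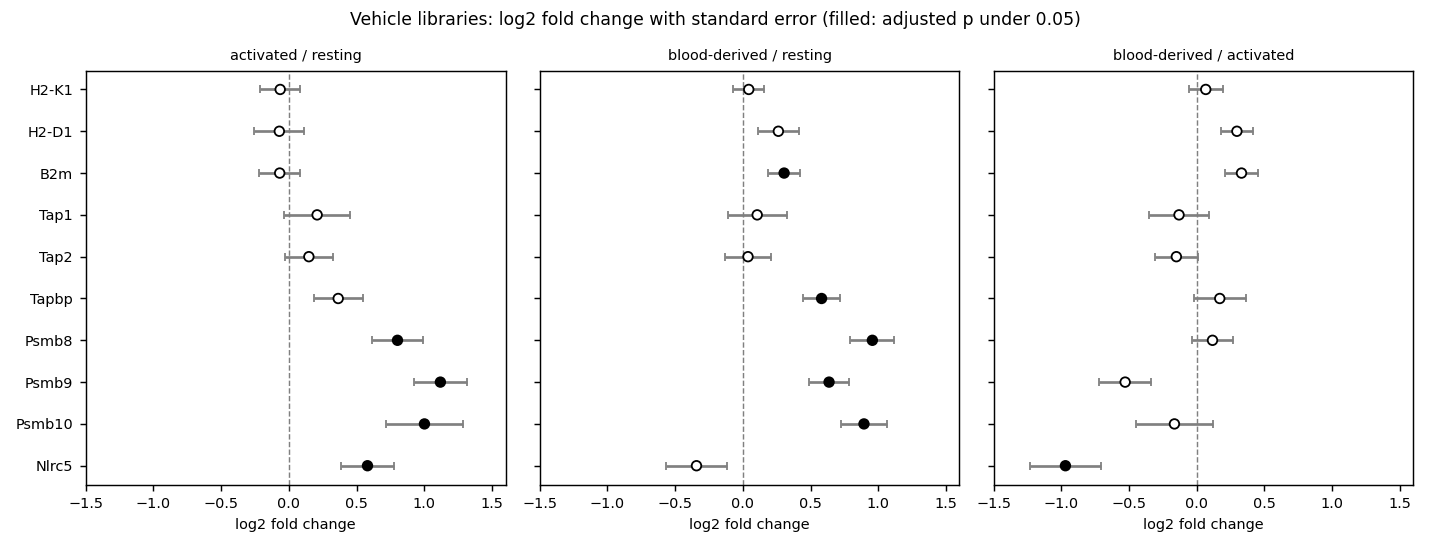
Log2 fold change of each member between populations in vehicle libraries (points) with standard errors (bars), from the edgeR fits; filled points passed an adjusted p of 0.05. Psmb8, Psmb9 and Psmb10 lie to the right of 0 in both comparisons with resting microglia, and Nlrc5 lies to the right in activated and to the left in the comparison of blood-derived with activated cells.

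The inhibitor libraries, none of which enters the vehicle comparisons, were compared in the same way. Members called with vehicle were called again, except B2m in blood-derived against resting cells. Tap1 in activated against resting and Psmb9 in blood-derived against activated cells were called only with inhibitor. In activated against resting microglia, Psmb9 ranged from 150 to 271 FPKM (median 195) against 67.1 to 86.1 FPKM (median 75.5), with no overlap by FPKM or CPM, and rose by 1.38 ± 0.17 (edgeR adjusted p = 2.84e-05). Psmb8 ranged from 229 to 480 FPKM (median 403) against 154 to 206 FPKM (median 187), with no overlap by FPKM, while by CPM activated replicate 2 (202.6) lay below all resting libraries (247.5 to 327.0). It rose by 1.04 ± 0.21 (edgeR adjusted p = 0.00187). Nlrc5 ranged from 29.2 to 66.2 FPKM (median 38.5) against 4.80 to 18.1 FPKM (median 14.9), and its rise of 1.26 ± 0.31 (edgeR adjusted p = 0.00627) compares with 0.58 in vehicle libraries. The interaction, from a separate fit over the 4 groups, was 0.56 ± 0.40 and did not pass (edgeR adjusted p = 0.986). With inhibitor, the call of Nlrc5 held in every alternative fit run, including those that left out 1 library. Psmb10 rose by 0.81 ± 0.25 (edgeR adjusted p = 0.024) with overlapping libraries, and lost its call in 4 of 12 fits that left out 1 library (adjusted p up to 0.0656). Tap1 rose by 0.70 ± 0.19 (edgeR adjusted p = 0.0109), which was not called in vehicle libraries. It ranged from 83.2 to 170 FPKM against 69.2 to 83.4 FPKM, and missed the threshold without activated replicate 6 or resting replicate 1. Without resting replicate 1, whose Nlrc5 was the 4.80 FPKM, 3 members were called rather than 5, where 33.3% of 12028 genes were called and 22.1% were called higher. By FPKM the libraries of 3 members did not overlap, against 30.4% of genes, and by CPM those of 1 member, Psmb9, against 32.7%.

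Blood-derived phagocytes with inhibitor had more Psmb8 (1.03 ± 0.11, edgeR adjusted p = 6.32e-07), Psmb10 (0.89 ± 0.10, edgeR adjusted p = 1.29e-06), Psmb9 (0.68 ± 0.11, edgeR adjusted p = 4.77e-05) and Tapbp (0.39 ± 0.10, edgeR adjusted p = 0.00322) than resting microglia with inhibitor. The resulting 4 of 10 members compare with 63.5% of 12022 genes called, 31.2% as higher, and 3 members against 40.1% of genes had no overlap by FPKM (2 members, Psmb8 and Psmb10, against 41.2% by CPM). Against activated microglia, blood-derived phagocytes had less Nlrc5 (-0.88 ± 0.20, edgeR adjusted p = 0.00549) and less Psmb9 (-0.66 ± 0.17, edgeR adjusted p = 0.0121). These were the 2 members called, where 20.2% of 11614 genes were called, 14% as lower and 6.23% as higher, and Nlrc5 alone had no overlap by FPKM, against 18.5% of genes (0 members against 20.1% by CPM). H2-K1, H2-D1 and Tap2 were called in none of the 12 comparisons and interactions made with edgeR.

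To separate the exchange of catalytic subunits from the amount of proteasome RNA, each immunoproteasome subunit was also set against the constitutive subunit whose place it takes, within each library. Psmb9 relative to Psmb6 was 0.20, 0.70, 0.94, 0.68 and 0.36 on the log2 FPKM scale in activated vehicle libraries. It was -0.51, -0.34, -0.43, -0.46 and 0.11 in resting and -0.46, 0.14, -0.71, -0.30 and -0.25 in blood-derived ones. Activated vehicle libraries thus held more Psmb9 than Psmb6, and all of them lay above the vehicle libraries of the other 2 populations, whose values overlapped. With inhibitor, activated libraries ranged from -0.14 to 1.52 and overlapped with blood-derived (-0.66 to -0.11) and resting ones (-0.61 to -0.14). The difference in mean was 0.90 between activated and resting (exact permutation p = 0.00794, the smallest that 5 against 5 libraries allow; adjusted over 18 tests 0.0714) and -0.89 between blood-derived and activated (same p and adjusted p). Between blood-derived and resting libraries it was 0.01 (exact permutation p = 0.96).

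Psmb8 relative to Psmb5 averaged 2.80 ± 0.28 (SD) in activated, 2.71 ± 0.17 in blood-derived and 2.38 ± 0.26 in resting vehicle libraries (n = 5 each), so Psmb8 was 5.25 to 7.16 times as abundant as Psmb5 at the group medians. Psmb10 relative to Psmb7 averaged 1.35 ± 0.50, 1.23 ± 0.26 and 0.87 ± 0.28 in the same order. None of the 18 tests, over 3 ratios and 6 comparisons, passed after adjustment (smallest adjusted p 0.0714), and 5 of them had an unadjusted exact permutation p under 0.05. Among these 5 was an inhibitor comparison, Psmb8 relative to Psmb5 in activated microglia (-0.39 with inhibitor against vehicle, exact permutation p = 0.0346, adjusted 0.171). In blood-derived against resting cells the constitutive counterparts were higher too (Psmb5 0.63 ± 0.09, Psmb6 0.72 ± 0.09, Psmb7 0.49 ± 0.09, each with an edgeR adjusted p of at most 0.000335), and in activated against resting cells they did not pass (edgeR adjusted p = 0.113, 0.2 and 0.0584).

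Psmb9 and Tap1, which share the 225 bases printed above, were compared in the same way after their levels had been seen, so their ratio is given without a test. Psmb9 was close to Tap1 in resting microglia, with log2 differences of -0.10, -0.08, 0.11, -0.05 and -0.27 in vehicle and -0.12 to 0.07 in inhibitor libraries. In blood-derived phagocytes the differences were 0.54, 0.28, 0.69, 0.66 and 0.39 with vehicle and 0.43 to 0.56 with inhibitor. In activated libraries they were 0.41, 2.07, 0.71, 0.43 and 0.71 with vehicle and 0.34 to 1.05 with inhibitor. No library of either CD45-high population fell within the resting range. GENCODE's exons of the 2 genes share 212 bases on opposite strands, and whether the counting used strand was not given in the sources used here, so reads from that stretch cannot be assigned to one gene. The same limit holds for other members. On the opposite strand, Tapbp shares 904 of 3628 exonic bases with Gm19412, Psmb8 498 of 3381 with Gm20496 and Tap2 533 of 3781 with Gm15821. Tapbp also shares 149 bases with Zbtb22 on the same strand. The part of such reads in the results was not tested.

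**Figure D3:**
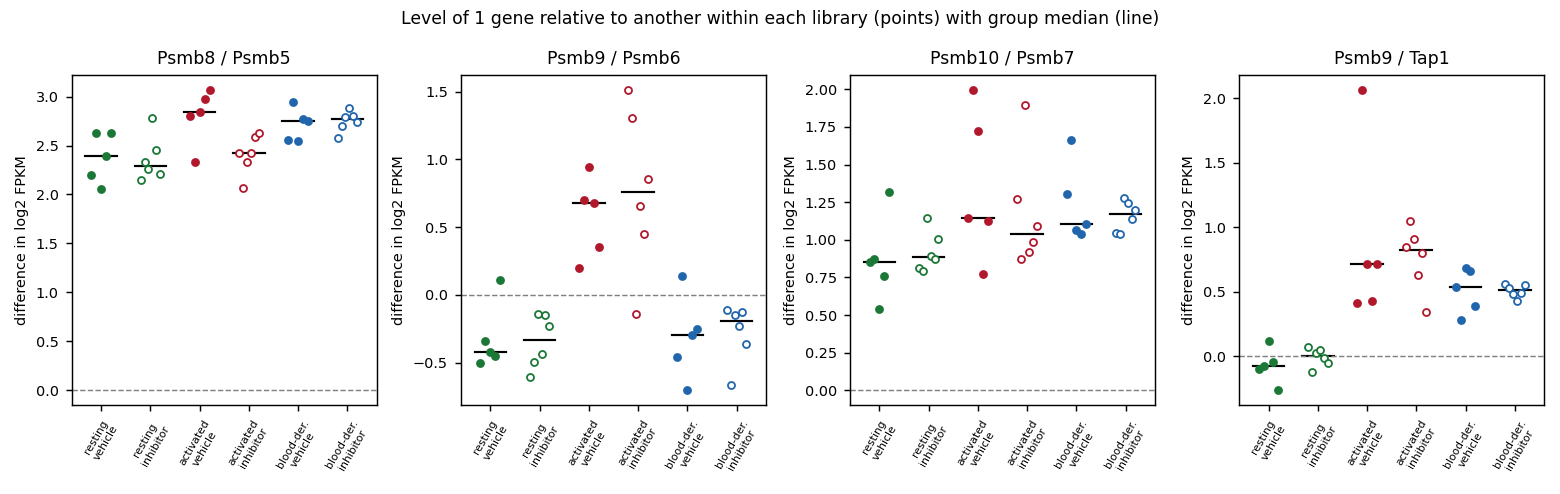
Difference in log2 FPKM between 2 genes within each library (points, filled for vehicle and open for inhibitor) with the group median as a line, for Psmb8 over Psmb5, Psmb9 over Psmb6, Psmb10 over Psmb7 and Psmb9 over Tap1. Psmb9 exceeds Psmb6 in all 5 activated vehicle libraries (0.20 to 0.94), and Psmb9 over Tap1 is near 0 in resting microglia.

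No member passed the test for a change with the CSF1R inhibitor in any population. The counts were 0 of 10 in activated microglia (0 of 11675 genes called, 0.0%), 0 of 10 in resting microglia (0 of 12226, 0.0%) and 0 of 10 in blood-derived phagocytes (32 of 11670, 0.274%, of which 0.223% higher and 0.0514% lower), and they were 0 under every alternative, DESeq2 and limma-trend included. At an unadjusted p under 0.05 there were 0, 0 and 2 members. Those 2 were Tapbp (-0.33 ± 0.12, edgeR adjusted p = 0.222) and H2-D1 (-0.27 ± 0.10, edgeR adjusted p = 0.21) in blood-derived phagocytes. H2-D1 stood at 3102, 3281, 3573, 3309 and 3396 FPKM with vehicle and ranged from 2048 to 3196 FPKM (median 2732) with inhibitor, so the groups barely overlapped. In no population were the libraries of any member without overlap between inhibitor and vehicle, which held for 0.642% of genes in activated microglia, 2.62% in blood-derived phagocytes and 0.442% in the resting gate (by CPM also 0 members, against 0.617%, 2.08% and 0.589%).

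The intervals set what these groups could show. In blood-derived phagocytes the 95% intervals of all members lay between -0.59 and 0.59. In resting microglia they lay between -1.12 and 0.38, the lower end belonging to Nlrc5 (-0.50 ± 0.28), and in activated microglia between -1.25 and 0.70, the ends belonging to Psmb10 (-0.47 ± 0.36) and Tap1 (0.17 ± 0.25). No member passed the test of a difference in inhibitor effect between populations (0 of 10 in each of the 3 interactions, where 0.0% of genes were called). For H2-D1 the interaction was -0.49 ± 0.18, blood-derived minus activated (unadjusted p = 0.0147, edgeR adjusted p = 0.8), and for Nlrc5 0.69 ± 0.36, blood-derived minus resting (edgeR adjusted p = 0.729). In activated libraries NK markers ranged from 368 to 16310 CPM with inhibitor against 713 to 3555 CPM with vehicle, and neutrophil markers from 20150 to 141700 against 26010 to 82190 CPM. With the neutrophil markers, or the T cell and NK cell markers together, as a covariate the count remained 0. Since 0 of 11675 genes were called without a covariate, that count cannot show the part of these markers.

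**Figure D4:**
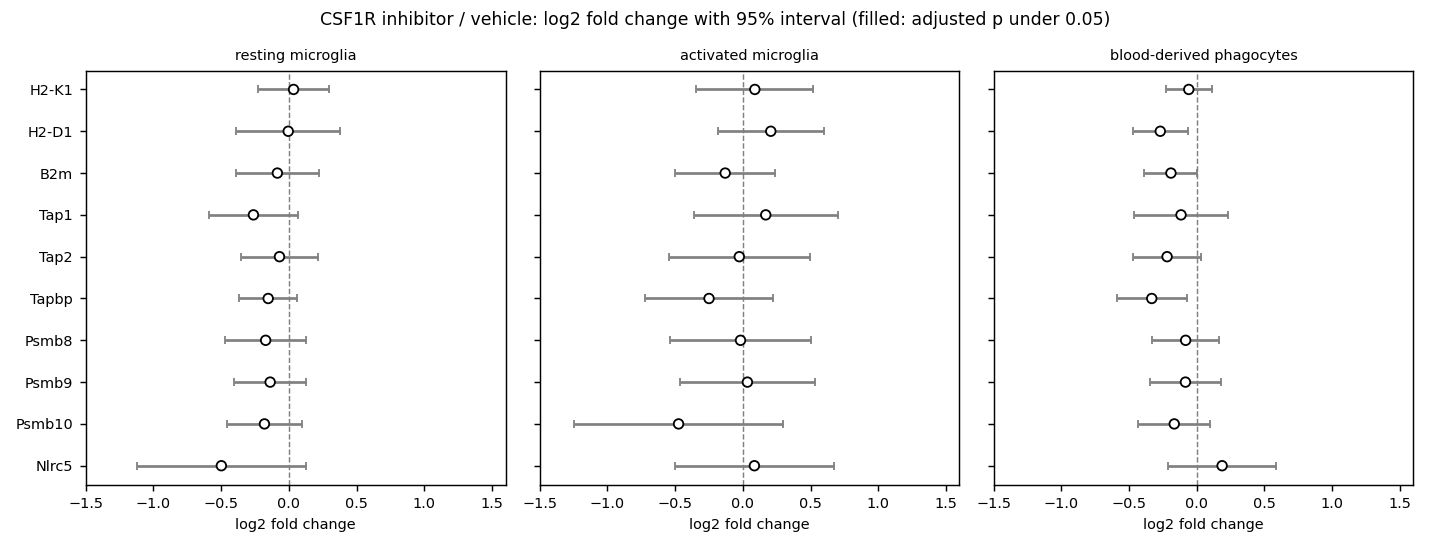
Log2 fold change of each member, CSF1R inhibitor against vehicle (points), with 95% intervals (bars) in the 3 populations, from the edgeR fits; all points are open since none passed an adjusted p of 0.05. Intervals are narrowest in blood-derived phagocytes and widest for Psmb10 and Nlrc5 in activated and resting microglia.

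Other genes of the pathway were counted by list. Of the other 11 subunits of the proteasome core, 7 were higher in activated than in resting microglia of the vehicle groups, where 18.2% of genes were (list median 0.48 against -0.10 over all genes), among them Psma7 at 0.76 ± 0.15 (edgeR adjusted p = 0.00334), and all 11 were higher in blood-derived phagocytes, where 30.9% of genes were (median 0.75 against -0.04). The interferon-inducible proteasome activator Psme2 rose by 0.98 ± 0.19 in activated (edgeR adjusted p = 0.0025) and 0.92 ± 0.16 in blood-derived cells (edgeR adjusted p = 0.000334), close to the values for Psmb8. Of 8 genes listed for peptide trimming and loading, not all of which act in the endoplasmic reticulum, 6 were lower in activated than in resting microglia, as were 10.7% of genes (median -0.76). They included calnexin (Canx, -1.39 ± 0.14), calreticulin (Calr, -1.15 ± 0.13) and ERp57 (Pdia3, -1.48 ± 0.21), each with an edgeR adjusted p of at most 0.000301. Tapasin (Tapbp), which works with calreticulin and ERp57, differed by 0.36 ± 0.18. In blood-derived against resting cells 4 of the 8 were lower (31.6% of genes), and against activated cells 5 were higher (6.48% of genes).

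Among 16 regulators of class I transcription, 6 were higher and 3 lower in activated than in resting microglia (18.2% and 10.7% of genes). Irf1, an interferon-induced activator of class I genes, ranged from 220 to 442 FPKM in activated, 113 to 205 FPKM in resting and 71.6 to 182 FPKM in blood-derived vehicle libraries. It rose by 1.12 ± 0.24 in activated against resting (edgeR adjusted p = 0.00468), was lower by -1.68 ± 0.29 in blood-derived against activated cells (edgeR adjusted p = 0.00191), and its group medians had the same order as those of Nlrc5. Of 14 interferon gamma response genes tested, 5 were higher in activated than in resting microglia, against 18.2% of genes, Gbp2 among them by 1.79 ± 0.36 (edgeR adjusted p = 0.00316). Ifng itself measured 14.4 to 60.2 CPM in activated, 0.263 to 2.95 CPM in blood-derived and 0 CPM in all 5 resting vehicle libraries. In the same activated libraries NK cell markers summed to 713 to 3555 CPM and T cell markers to 131 to 461 CPM. Which cells held the Ifng RNA was not tested. Of 14 other class I heavy chains tested, 1 was higher and 1 lower in activated microglia (18.2% and 10.7% of genes), the latter H2-M3 by -1.36 ± 0.32 (edgeR adjusted p = 0.00778). Reads of near-identical heavy chains (H2-K1, H2-D1 and the H2-Q genes) may have been split between copies, so their single values are uncertain.

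Over all 33 libraries and 13439 genes, the genes most like each member in log2 CPM pattern were, by Pearson r, Psme2 for Psmb8 (0.948), Rnf181 and Ifi47 for Psmb9 (0.946 and 0.939), Psma5 and Psme1 for Psmb10 (0.934 and 0.924), Herc6 for Nlrc5 (0.878), Hmga1b for Tapbp (0.83), Tgtp2 for Tap2 (0.823), Fgl2 for Tap1 (0.813), Ywhae for B2m (0.805), Mrps26 for H2-K1 (0.77) and Arhgdia for H2-D1 (0.679). These points share libraries and population differences. On deviations from group means, which remove the populations, Psmb8 was still closest to Psme2 (0.888), Psmb10 to Psme2 and Psma7 (0.907 each), Nlrc5 to Herc6 (0.815) and Tap2 to Tgtp2 (0.855), while Tap1 was closest to Gbp2 (0.836). Among the members, the 45 pairwise r of such deviations ranged from 0.01 for B2m with Nlrc5 to 0.849 for Tap2 with Psmb8, and their median was 0.554. H2-K1 followed Psmb8 (0.835) and Psmb10 (0.803) more closely than it followed H2-D1 (0.594) or B2m (0.575).

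**Figure D5:**
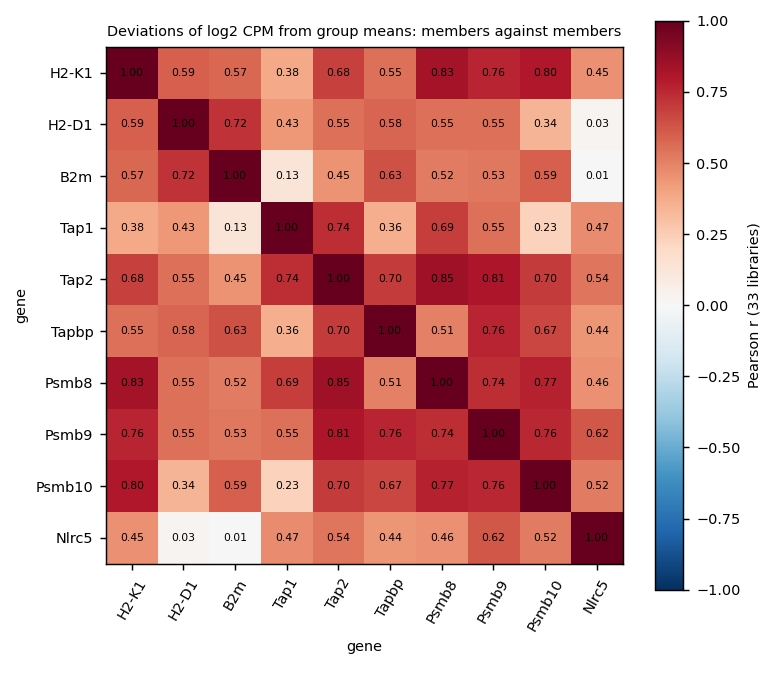
Pearson r between members over 33 libraries of log2 CPM deviations from group means (color scale from -1 to 1, value in each square). Nlrc5 has its lowest values with B2m (0.01) and H2-D1 (0.03), and Tap2 with Psmb8 is the highest pair (0.85).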

How the data were processed

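RNA from sorted cells was amplified with SMART-Seq v4 and sequenced on a NextSeq500, per the labels' protocols; the submitters' processing notes name bcl2fastq and GRCm38, and no source used here names the aligner or counting program. The authors deposited expected counts (16.3% of values not whole; rounded here). The authors also deposited log2 values of FPKM with 1 added, from which FPKM were computed back here; all 33 libraries had the same 75th percentile (2.936), so these values are rescaled per library. Overlap of libraries was judged on them and, as an alternative added after the data were seen, on CPM of all counts. Each column matched 1 library (0 left out). Symbols came from GENCODE M21.

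edgeR 4.0.16 in R 4.3.3 compared only the libraries of the groups named: filterByExpr, TMM, robust quasi-likelihood F test, Benjamini-Hochberg over all genes tested, called under 0.05. There were 9 pairwise comparisons and 3 interactions. Ratios used 2-sided exact permutation tests (scipy in Python), adjusted over 18 tests. The fitting code was tested on simulated data. Alternatives were RLE scaling, DESeq2 1.42.0, no count filter, all 33 libraries, limma-trend 3.58.1 on log2 FPKM, covariates, the replicate block and leaving out libraries. Named genes were the members, the 4 most abundant genes of each pathway list with Psmb5, Psmb6, Psmb7, Irf1, Irf2, Ifng, Psme1 and Psme2, and the 3 genes most like each member; calls elsewhere are given as counts, and some items the rule would name are not reported here. The members and lists were chosen with earlier results of these data known.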

Additional observations from a re-analysis of the deposited data

Results flagged for a closer look

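In 5 of 60 sets of group values, 1 library lay far from the others by Dixon's criterion, which flags about 1 in 20 sets by chance. Activated vehicle replicate 2, in which few genes were detected, was high for B2m (6049 FPKM), Tapbp (357.7 FPKM), Psmb10 (265.3 FPKM) and Nlrc5 (63.53 FPKM). Activated inhibitor replicate 1, also with few detected genes, was high for Nlrc5 (66.18 FPKM). These flags rest on FPKM. By CPM, Nlrc5 was 285.6 in that library against 241.7 in the next of its group, and 269.2 in vehicle replicate 2 against 222.1. For vehicle replicate 2, Psmb10 was 390.9 against 199.7 CPM, Tapbp 1099 against 621.7 CPM and B2m 6064 against 4613 CPM. The part of these libraries in the results was not tested beyond the fits that left them out.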

How the results depend on the processing

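Replicate numbers showed no clear pairing of the libraries: of 78 same-numbered pairs, 3 deviated together with r over 0.1 (range -0.187 to 0.343). All these pairs joined libraries of different population or treatment, so low r does not tell whether gates were sorted from the same animals. With the replicate block, 3 members rather than 4 were called in activated against resting microglia with vehicle (Nlrc5 0.56, adjusted p = 0.103), B2m in blood-derived against resting cells reached 0.051 and Nlrc5 there was called (-0.39, adjusted p = 0.0119). The block left the other counts at 1, 5, 5, 2, 4 and 0. For the ratios the block was a paired sign-flip test over 5 pairs. Its smallest possible p is 0.0625, so no ratio could pass and this setting cannot decide. 

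With detected genes as a covariate, members called were 0 instead of 4 in activated against resting cells with vehicle, where Psmb10 reversed to -0.0169 (adjusted p = 0.969). They were 0 instead of 5 in blood-derived against resting cells with vehicle. In blood-derived against activated cells they were 1 instead of 2 with inhibitor and 3 instead of 1 with vehicle. Those 3 were B2m, Tapbp and Psmb10, which reversed to 0.57 (adjusted p = 0.049), while Nlrc5 lost its call (-0.71, adjusted p = 0.1095). The count in blood-derived against activated cells with vehicle was 2 with all 33 libraries, 3 with DESeq2, 3 with log2 FPKM and 2 without libraries under 11000 detected genes. Leaving out 1 library gave 2 to 4 members in activated against resting (vehicle), 0 to 2 in blood-derived against activated (vehicle) and 3 to 5 in activated against resting (inhibitor). RLE scaling moved the median of all genes in the last from -0.01 to -0.20, and Psmb10 lost its call there (0.61, adjusted p = 0.0642), as it did with the detected-gene covariate (0.55, adjusted p = 0.34). Tapbp in blood-derived against resting cells with inhibitor lost its call with all 33 libraries (0.37, adjusted p = 0.0663) and with that covariate (0.24, adjusted p = 0.201). Nlrc5 in activated against resting vehicle libraries lost its call in 7 of 8 other settings (adjusted p 0.0135 to 0.708).

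Counts over all genes moved by more than 1.5 times in these fits. Blood-derived against activated cells gave 2176 genes with vehicle, 3619 without libraries under 11000 detected genes and 1401 with the replicate block, and with inhibitor 2348, 3781 without those libraries and 3969 with all 33. Blood-derived against resting cells gave 7542 with vehicle, 3493 with all 33 libraries and 4133 with the detected-gene covariate, and with inhibitor 7628 and 3967 with all 33. Activated against resting with inhibitor gave 4007, 6121 with all 33 and 2255 with that covariate. The inhibitor in blood-derived cells gave 32, 0 without inhibitor replicate 5 and 181 without inhibitor replicate 6, but 343 with DESeq2, 132 with log2 FPKM, 99 with that covariate, 61 with the block, and 0 with all 33 libraries or either marker covariate; in activated cells 0, but 322 with all 33 and 19 with DESeq2; in resting cells 0, but 3 with DESeq2. Interactions gave 0, but 75, 59 and 14 with DESeq2, 1 and 4 with all 33 in the first 2, and 1 with the block in the second. Of the genes called, 2205 were higher and 1294 lower in activated against resting microglia with vehicle (2599 and 2426 with DESeq2), and 2658 and 1349 with inhibitor (2203 and 1715 with RLE, 2912 and 2738 with DESeq2). No cause of these shifts was tested.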

Other observations

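H2-Q10, a class I heavy chain outside the members, was chosen after its values were seen. It ranged from 19.9 to 65.3 FPKM in activated vehicle libraries, 0.369 to 0.819 FPKM in blood-derived and 0.571 to 1.95 FPKM in resting ones, and from 18.9 to 87.2 FPKM in activated inhibitor libraries. Its rise in activated against resting vehicle libraries was 3.47 ± 0.44 on the log2 scale (edgeR adjusted p = 0.00017), with neutrophil and NK markers also higher in those libraries; their part was not tested. H2-K2, found only in the log2 FPKM table, had medians of 10.5 FPKM in activated, 3.04 FPKM in blood-derived and 7.01 FPKM in resting vehicle libraries.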
